A study of Mus musculus with 12 samples.

Results

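The 7 genes described here are structural readouts of epithelial-mesenchymal transition (EMT). They are the cadherin genes Cdh1, Cdh2, Cdh3 and Cdh11, the adhesion genes Epcam and Ncam1, and the intermediate filament gene Vim. They were taken by name, with no threshold on a measured value, from 54347 genes in the count table, though earlier results of these data were known. All 7 passed the filter on low counts.

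Epithelial cells hold together through E-cadherin, the product of Cdh1, whose extracellular domains bind those of the neighbouring cell and whose cytoplasmic tail binds catenins that link it to actin. During EMT, cells lose this contact and take on N-cadherin (Cdh2) and a cytoskeleton rich in vimentin (Vim). In a partial EMT, epithelial and mesenchymal genes are expressed together. TGFb ligands are classical inducers of EMT in mammary epithelium, and BMPs signal through a related set of receptors and SMAD proteins.

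RNA was measured in mouse PYMT cells, a single line named for the polyoma middle T model of mammary cancer, grown in 3D matrigel. The 4 groups were cells given BMP4 and TGFB2 together (BMP4-TGFB2), BMP4 alone, TGFB2 alone, or neither (NT), with 3 biological replicates each. Each ligand was used at 5 ng/mL for 3 days, and harvest followed a change of medium by 2 days. The study asked which programs these ligands induce on the way to dormancy. The labels name no other allele or agent, and they do not say what separated the replicates, and p-values therefore reflect only how these samples varied.

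The 12 libraries held 28543128 to 42167771 counts, with mitochondrial shares of 2.91%, 2.05% and 1.77% with BMP4-TGFB2, 1.76%, 1.53% and 1.4% with BMP4, 2.95%, 2.46% and 1.84% with TGFB2, and 1.95%, 1.14% and 1.15% in NT. Each library given TGFB2 had a higher share than the NT library of the same number. Between these groups Cdh2, Ncam1 and Vim moved the same way. Within each ligand group the share fell from the library numbered 1 to that numbered 3, while Cdh2, Ncam1 and Vim rose. The part of this share in their results was not tested. Keratins of luminal mammary cells were abundant: Krt8 had 977 to 1400 TPM (a level adjusted for transcript length and sequencing depth) and Krt18 had 862 to 1450 TPM. Of the basal keratins, Krt14 had 180 to 1320 TPM and Krt5 at most 0.853 TPM. The model carried the replicate number as a block. The labels do not say that a number marks a shared batch, and in both comparisons of a TGFB2-treated group with NT the same-numbered libraries deviated together only weakly in at least 1 pair, so values without the block are given where it decides a call of the 7 genes.

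BMP4-TGFB2 raised Cdh2, Ncam1 and Vim and lowered Cdh1, so 3 of the 7 genes rose and 1 fell, beside 20.4% and 21% of all 15319 tested genes. TGFB2 alone changed the same 4 genes in the same directions, where 18.7% of all genes rose and 19.2% fell. BMP4 alone raised Ncam1 only, with 8.6% of all genes rising and 6.78% falling. Epcam, Cdh3 and Cdh11 did not pass in any comparison with edgeR's quasi-likelihood test at an adjusted p of 0.05. These 3 comparisons share the NT samples, so their likeness is not independent evidence.

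**Figure D1:**
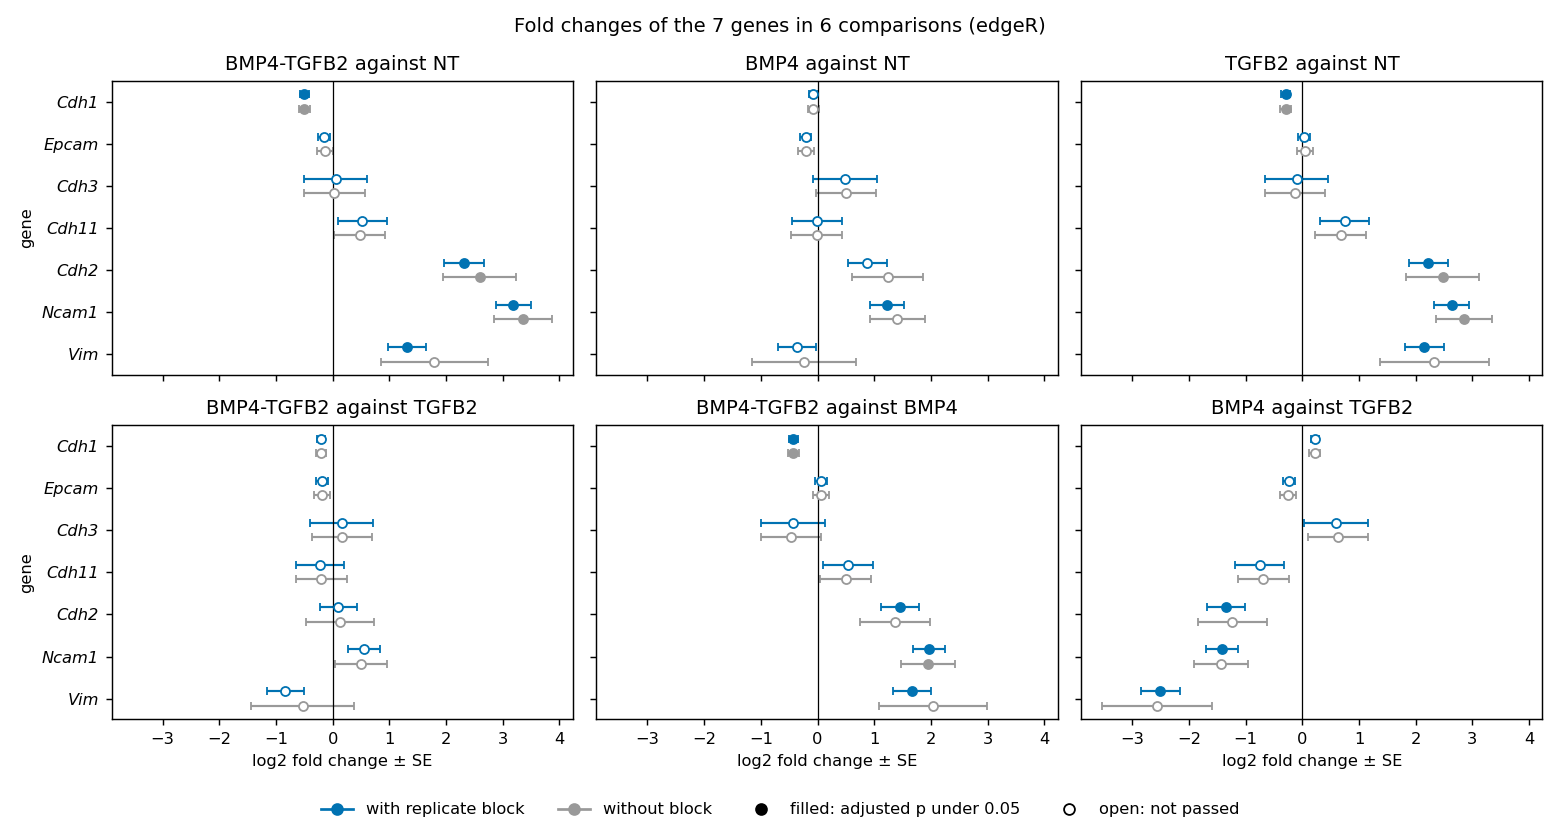
Log2 fold change ± SE (horizontal axis) of each gene (vertical axis) in 6 comparisons, with the replicate number as a block (blue) and without it (grey). Filled points passed an adjusted p of 0.05. Cdh2, Ncam1 and Vim lie right of 0 wherever TGFB2 was added, and the bars of Vim widen most without the block.

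Cdh1 had 140.0, 163.7 and 137.1 TPM in the BMP4-TGFB2 libraries. It had 176.4, 212.3 and 196.9 TPM with BMP4, 157.1, 181.1 and 176.4 TPM with TGFB2, and 216.4, 199.2 and 216.9 TPM in NT. Every BMP4-TGFB2 and every TGFB2 library lay below every NT library, while the BMP4 and NT ranges overlapped. Cdh1 fell with BMP4-TGFB2 against NT (log2 fold change -0.50 ± 0.08 SE, adjusted p = 0.000547). It fell with TGFB2 against NT by 0.30 ± 0.08 on the log2 scale (adjusted p = 0.0122). The gene therefore kept most of its level: BMP4-TGFB2 cells averaged 146.9 ± 14.6 TPM and NT cells 210.8 ± 10.1 TPM (SD, n = 3 each). With BMP4 alone the difference was -0.08 ± 0.08 (adjusted p = 0.569).

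The Cdh1 decrease with TGFB2 alone was the less secure of the pair. Its adjusted p was 0.0505 without NT replicate 3, 0.0529 without TGFB2 replicate 3, 0.0569 without all libraries numbered 1, 0.146 without all libraries numbered 3 and 0.138 when only TGFB2 and NT libraries were fitted. The fold change stayed between -0.34 and -0.26 in all 17 alternatives. The BMP4-TGFB2 decrease passed in all 17 alternatives.

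Epcam encodes an epithelial surface glycoprotein that mediates adhesion between like cells. It was the most abundant of the 7 genes, with 652.8 to 897.8 TPM in BMP4-TGFB2, 699.2 to 784.6 TPM in BMP4, 789.3 to 967.7 TPM in TGFB2 and 873.9 to 902.6 TPM in NT. The BMP4 range lay below the NT range, but the difference of -0.21 ± 0.11 did not pass (adjusted p = 0.215). Epcam differed by -0.15 ± 0.11 with BMP4-TGFB2 against NT (adjusted p = 0.284) and by 0.03 ± 0.11 with TGFB2 against NT (adjusted p = 0.847). A p that misses the threshold does not show that the levels were the same.

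RefSeq promoter sequences on GRCm38.p6 were at hand for 2 of the 7 genes, Vim and Epcam. Both are shown because no others were at hand. Relative to its own level, Vim had the widest range among the 7 genes and Epcam the narrowest. Each run covers the 250 bases before the RefSeq start on the plus strand, at chr2:13574061-13574310 for Vim and chr17:87635729-87635978 for Epcam. Capitals mark the E-box letters bound by SNAI and ZEB repressors (CACCTG, or on the other strand CAGGTG) and the SMAD letters CAGAC, or on the other strand GTCTG.
Vim: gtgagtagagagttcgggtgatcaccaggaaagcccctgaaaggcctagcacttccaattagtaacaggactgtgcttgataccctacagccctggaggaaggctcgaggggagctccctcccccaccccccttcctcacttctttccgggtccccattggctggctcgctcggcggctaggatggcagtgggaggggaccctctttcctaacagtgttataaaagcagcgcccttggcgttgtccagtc
Epcam: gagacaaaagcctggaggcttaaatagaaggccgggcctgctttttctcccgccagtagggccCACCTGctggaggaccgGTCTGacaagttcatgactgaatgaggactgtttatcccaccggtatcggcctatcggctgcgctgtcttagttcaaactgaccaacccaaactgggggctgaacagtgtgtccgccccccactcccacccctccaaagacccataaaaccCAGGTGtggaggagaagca
The Epcam window held 2 E-box matches, whose first bases lay 187 and 19 bases before the start, and 1 SMAD match 170 bases before it. The Vim window held neither, and it lies inside the GENCODE M21 span of Vim, which starts at base 13573927. Of 32851 promoter windows of the same length, 17.2% held the E-box letters and 42.2% the SMAD letters. The matches overlap no other motif searched, and a match is a description of letters, not of binding.

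Cdh2 encodes N-cadherin, the cadherin of neural and mesenchymal cells. It had 11.9, 18.6 and 41.1 TPM with BMP4-TGFB2, 4.45, 5.56 and 17.8 TPM with BMP4, 13.0, 15.6 and 40.1 TPM with TGFB2, and 5.34, 2.94 and 4.11 TPM in NT. Every library that received TGFB2 lay above every NT library, and the library numbered 3 was the highest in each of the 3 ligand groups but not in NT. Cdh2 rose with BMP4-TGFB2 against NT (log2 fold change 2.32 ± 0.35, adjusted p = 0.000496). It rose with TGFB2 against NT by 2.22 ± 0.35 (adjusted p = 0.000755). Both calls passed in all 17 alternatives, without the block at an adjusted p of 0.0121 for BMP4-TGFB2 and 0.0174 for TGFB2. TGFB2 over NT ratios of same-numbered libraries were 2.42, 5.31 and 9.77 and largest in the libraries numbered 3.

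For BMP4 against NT, the Cdh2 difference was 0.88 ± 0.34 (adjusted p = 0.12) and the ranges overlapped. Same-numbered ratios were 0.833, 1.89 and 4.34. Without NT replicate 1, the NT library with the most Cdh2, the difference was 1.45 with an adjusted p of 0.00646. It also passed without all libraries numbered 1 (1.49, adjusted p = 0.0156), with DESeq2 (adjusted p = 0.0362), with limma voom (adjusted p = 0.0328) and with no filter on low counts (adjusted p = 0.0319).

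Ncam1 encodes the neural cell adhesion molecule, an immunoglobulin-type adhesion protein also used as an EMT marker in mammary cells. It had 7.09, 14.1 and 19.6 TPM with BMP4-TGFB2, 1.86, 3.27 and 5.05 TPM with BMP4, 5.78, 7.62 and 16.5 TPM with TGFB2, and 1.58, 1.39 and 1.26 TPM in NT. Ncam1 was the member with the clearest order of groups: both groups given TGFB2 lay above BMP4, and BMP4 lay above NT, with no overlap at either step. BMP4-TGFB2 and TGFB2 overlapped. Ncam1 rose by 3.19 ± 0.31 with BMP4-TGFB2 (adjusted p = 3.03e-05) and by 2.63 ± 0.31 with TGFB2 (adjusted p = 0.000116), each against NT, and both calls passed in all 17 alternatives.

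BMP4 alone raised Ncam1 by 1.22 ± 0.30 against NT (adjusted p = 0.0225), with same-numbered ratios of 1.18, 2.36 and 4.01. This call was fragile and passed in 9 of 17 alternatives. Without the block its adjusted p was 0.125. It was 0.0751 without NT replicate 2, 0.0635 without BMP4 replicate 1, 0.0533 without BMP4 replicate 2, 0.0912 without BMP4 replicate 3 and 0.135 without all libraries numbered 3. With limma it was 0.0695 on log2(TPM + 0.1) and 0.113 on log2(TPM + 1). Ncam1 shares 417 exon bases with the antisense gene Gm11149 in unstranded reads, but that gene averaged 0.0106% of the CPM of Ncam1.

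**Figure D2:**
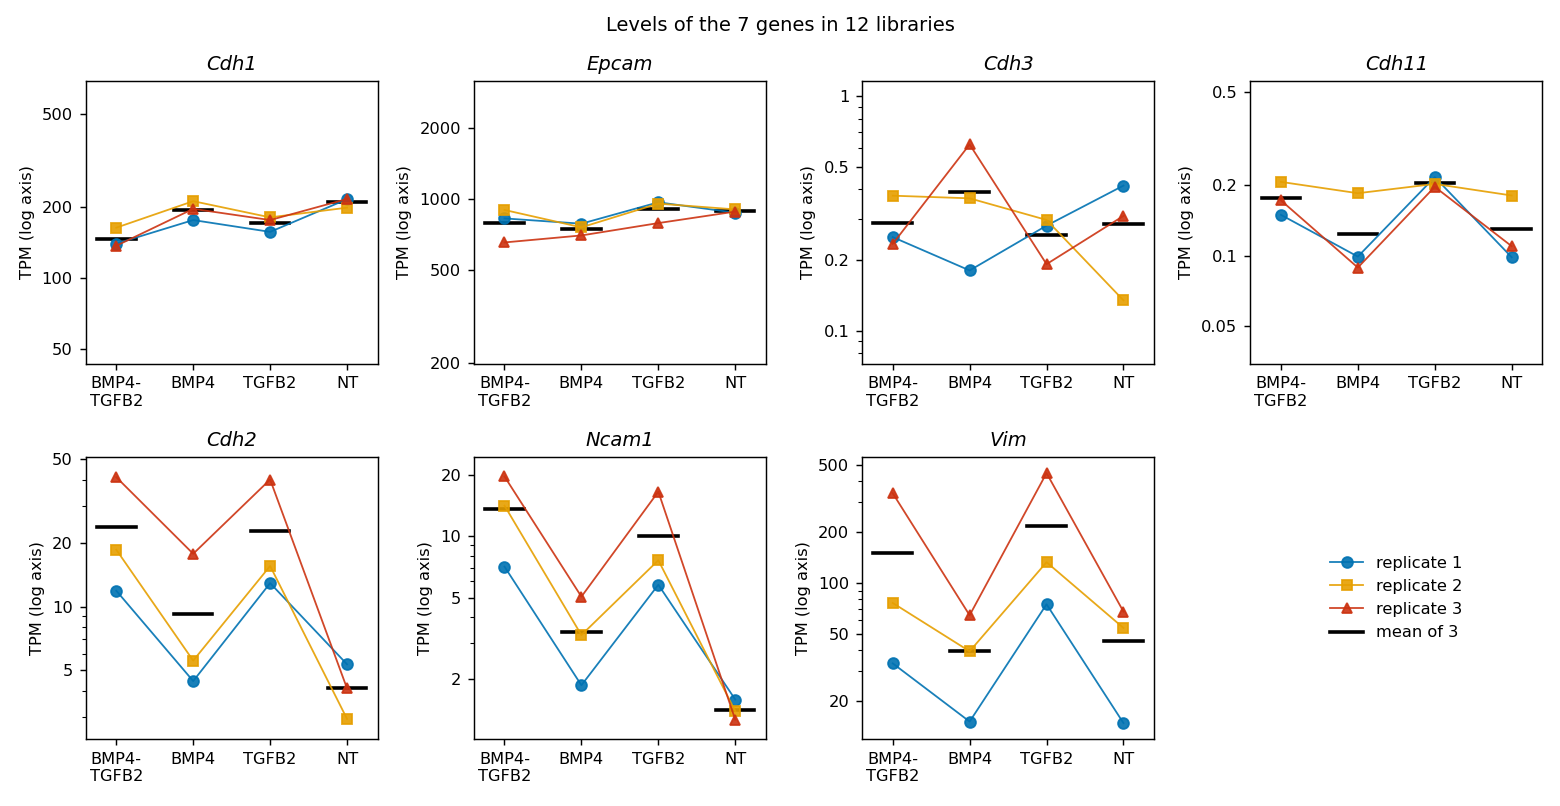
TPM on a log axis for each of the 7 genes in the 4 groups. Points and lines of 1 colour join the libraries with the same replicate number, and black bars are means of 3. Replicate 3 is the highest library for Vim in all 4 groups, and Ncam1 lies between 1.26 and 1.58 TPM in NT.

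Vim encodes vimentin, the intermediate filament protein of mesenchymal cells. It had 33.3, 76.0 and 340.0 TPM with BMP4-TGFB2, 15.0, 39.3 and 64.2 TPM with BMP4, 74.7, 132.6 and 447.7 TPM with TGFB2, and 14.7, 54.0 and 67.5 TPM in NT. In every group the library numbered 1 was lowest and the library numbered 3 highest. The highest library exceeded the lowest 10.2-fold with BMP4-TGFB2, 4.27-fold with BMP4, 6.0-fold with TGFB2 and 4.58-fold in NT. Every TGFB2 library lay above every NT library, whereas BMP4-TGFB2 and NT overlapped.

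Against NT, Vim rose with TGFB2 by 2.15 ± 0.34 (adjusted p = 0.000855), and same-numbered ratios were 5.07, 2.45 and 6.63. It rose with BMP4-TGFB2 by 1.31 ± 0.34 (adjusted p = 0.011), with ratios of 2.26, 1.41 and 5.04. Both calls rested on comparing libraries with the same number. Without the block the adjusted p was 0.107 for TGFB2 and 0.186 for BMP4-TGFB2. The BMP4-TGFB2 call was also lost without NT replicate 3 (0.95, adjusted p = 0.0557), without all libraries numbered 3 (0.66, adjusted p = 0.105) and when only those 2 groups were fitted (adjusted p = 0.056). With BMP4 alone the Vim difference was -0.36 ± 0.33 (adjusted p = 0.532).

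Ordered by mean TPM, few neighbouring groups were separated. For Cdh1 the order was BMP4-TGFB2 (lowest), TGFB2, BMP4 and NT, and each neighbouring pair overlapped. For Cdh2 it was BMP4-TGFB2 (highest), TGFB2, BMP4 and NT, and for Vim TGFB2 (highest), BMP4-TGFB2, NT and BMP4, again with overlap at each step. Among all 7 genes, Ncam1 alone had neighbours without overlap, and only its step between BMP4 and NT exceeded the sum of their SDs. The share of all genes with neighbouring groups so separated is not given here, so this describes the 7 genes only.

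The summed level of 10 fibroblast genes was highest in the library numbered 3 of each group, at 15.5 TPM with BMP4-TGFB2, 14.3 TPM with BMP4, 15.0 TPM with TGFB2 and 9.39 TPM in NT. Libraries numbered 1 and 2 had 8.42 and 5.89 TPM with BMP4-TGFB2, 9.07 and 2.64 TPM with BMP4, 8.74 and 8.49 TPM with TGFB2, and 5.90 and 2.60 TPM in NT. The sum thus shared with Vim its highest library in each group, but its lowest was number 2 and not number 1. Of 8 such genes tested, 4 rose with BMP4-TGFB2, 1 with BMP4 and 5 with TGFB2, each against NT, and none fell. Among all genes, 20.4% rose with BMP4-TGFB2, 8.6% with BMP4 and 18.7% with TGFB2, and 21%, 6.78% and 19.2% fell in that order. Dcn reached the highest level of the list (0.277 to 7.97 TPM). Col1a1 ranged from 0.324 to 2.50 TPM and Fap from 0 to 0.218 TPM, and no gene of the list was at 0 in all libraries. The part of fibroblast RNA in the Vim, Cdh2 and Ncam1 results was not tested. In bulk samples, fewer cells of a type and less RNA per cell cannot be told apart.

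The summed level of 8 leukocyte genes lay between 2.55 and 13.6 TPM, mostly Cd68 (2.23 to 13.1 TPM), while Ptprc stayed between 0.0549 and 0.317 TPM. Of 3 leukocyte genes tested, 2 rose with BMP4-TGFB2, 1 with BMP4 and 2 with TGFB2, each against NT. Cd68, a macrophage lysosomal protein, rose by 0.90 ± 0.24 with BMP4-TGFB2, 1.16 ± 0.24 with BMP4 and 0.81 ± 0.24 with TGFB2, and none of these calls passed without the block (adjusted p = 0.332 with BMP4-TGFB2, 0.39 with BMP4 and 0.372 with TGFB2). Sums were 1.18 to 3.29 TPM for 7 endothelial genes, 1.23 to 4.61 TPM for 5 adipocyte genes and 10.4 to 31.9 TPM for 5 muscle genes. For 7 Schwann and neural genes, a class that also expresses Ncam1 and Cdh2, sums were 44.7 to 55.3 TPM with BMP4-TGFB2, 65.1 to 101 TPM with BMP4, 51.1 to 55.6 TPM with TGFB2 and 105 to 119 TPM in NT. Most of that sum was Sox10 (16.1 to 94.3 TPM) and Mbp (17.8 to 25.4 TPM). Of these 7 genes, 1 rose and 2 fell with BMP4-TGFB2, 1 fell with BMP4, and 1 rose and 1 fell with TGFB2. Beside these counts, 20.4% of all genes rose and 21% fell with BMP4-TGFB2, 8.6% and 6.78% with BMP4, and 18.7% and 19.2% with TGFB2. The part of these cell types in the results was not tested.

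Cdh3 encodes P-cadherin of basal mammary cells and Cdh11 encodes a cadherin of mesenchymal cells. Cdh3 had 0.234 to 0.376 TPM with BMP4-TGFB2, 0.181 to 0.622 TPM with BMP4, 0.192 to 0.296 TPM with TGFB2 and 0.135 to 0.415 TPM in NT, from 14 to 59 counts per library. Cdh11 had 0.150 to 0.207 TPM with BMP4-TGFB2, 0.0891 to 0.185 TPM with BMP4, 0.197 to 0.216 TPM with TGFB2 and 0.0986 to 0.181 TPM in NT, from 11 to 35 counts. The Cdh11 levels with TGFB2 lay above all NT levels, yet the difference of 0.74 ± 0.43 did not pass (adjusted p = 0.207). The largest Cdh3 difference against NT was 0.48 ± 0.56 with BMP4 (adjusted p = 0.631). The errors are large beside these differences, and the missed calls do not show that the levels were the same.

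Cdh1, Cdh3 and Cdh11 lie on chromosome 8 (GRCm38, GENCODE M21). Cdh3 spans bases 106510891 to 106557297 and Cdh1 spans bases 106603351 to 106670246, both on the plus strand and 46.1 kb apart. Cdh1 averaged 210.8 TPM in NT and Cdh3 0.286 TPM. Cdh11 lies at 102632095 to 102785642 on the minus strand. The other members are scattered, with Vim on chromosome 2 (13573927 to 13582826, plus), Ncam1 on 9 (49502136 to 49798925, minus), Epcam on 17 (87635979 to 87651129, plus) and Cdh2 on 18 (16588877 to 16809246, minus). The counts are per gene and do not separate exons, introns or UTRs.

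Because TPM adjusts for length, levels of the 4 cadherin members can be set against each other. Of their summed TPM, Cdh2 made up 7.82%, 10.2% and 23.0% with BMP4-TGFB2, 2.46%, 2.55% and 8.28% with BMP4, 7.59%, 7.91% and 18.5% with TGFB2, and 2.40%, 1.45% and 1.85% in NT. All libraries given TGFB2 had a larger share of Cdh2 than any NT library. Every BMP4 library also lay above every NT library, by as little as the gap between 2.46% and 2.40%. Cdh1 remained the majority in all 12 libraries, at 76.8% to 91.9% with BMP4-TGFB2, 91.4% to 97.4% with BMP4, 81.3% to 92.1% with TGFB2 and 97.4% to 98.4% in NT.

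Expressed as a ratio, Cdh1 exceeded Cdh2 by 3.33- to 11.7-fold with BMP4-TGFB2, 11.0- to 39.7-fold with BMP4, 4.40- to 12.1-fold with TGFB2 and 40.5- to 67.7-fold in NT. The 4 genes together summed to 171 ± 16.6 TPM with BMP4-TGFB2, 205 ± 20.7 TPM with BMP4, 195 ± 23.3 TPM with TGFB2 and 215 ± 11.2 TPM in NT (SD, n = 3 each). The 4 members held 90.2% to 97.8% of the TPM of all 23 numbered Cdh genes in the table.

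**Figure D3:**
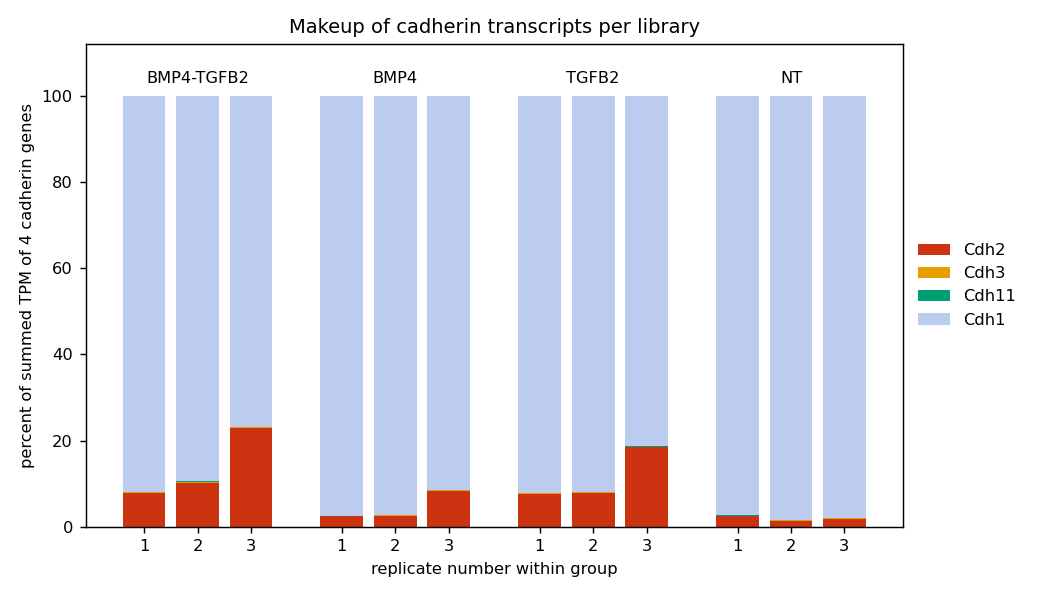
Share of the summed TPM of Cdh1, Cdh2, Cdh3 and Cdh11 (vertical axis, percent) in each library (horizontal axis, replicate number within group). Cdh1 is the majority in all 12 bars, and Cdh2 is largest in BMP4-TGFB2 replicate 3 at 23.0%.

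Adding BMP4 to TGFB2 changed none of the 7 genes in the fit of all libraries with edgeR (BMP4-TGFB2 against TGFB2). Only 0.0392% of all genes passed there, and 1056 genes had an unadjusted p under 0.05. Of the 7 genes, Cdh1 and Vim were under that level before adjustment. Cdh1 differed by -0.20 ± 0.08 (adjusted p = 0.614). Vim had the largest difference, -0.84 ± 0.33 (adjusted p = 0.635), with BMP4-TGFB2 below TGFB2 in every same-numbered pair at ratios of 0.446, 0.573 and 0.759. Ncam1 went the other way by 0.55 ± 0.28 (adjusted p = 0.792), at ratios of 1.23, 1.85 and 1.19. When only these 6 libraries were fitted, Vim (adjusted p = 0.0269) and Ncam1 (adjusted p = 0.0179) both passed, as did 500 genes in all. DESeq2 called 181 genes and limma voom 21, none of the 7 among them.

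Adding TGFB2 to BMP4 raised Cdh2, Ncam1 and Vim and lowered Cdh1 (BMP4-TGFB2 against BMP4), where 10.7% of all genes rose and 12% fell. Ncam1 rose by 1.97 ± 0.29 (adjusted p = 0.00112), with same-numbered ratios of 3.82, 4.32 and 3.89. Cdh1 fell by 0.42 ± 0.08 on the log2 scale (adjusted p = 0.00332), and all 3 BMP4-TGFB2 libraries lay below all 3 BMP4 libraries. This Cdh1 call was lost without all libraries numbered 3 (adjusted p = 0.0957).

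Cdh2 rose by 1.45 ± 0.33 in that comparison (adjusted p = 0.0116) and Vim by 1.67 ± 0.34 (adjusted p = 0.00638). Both groups overlapped for these genes, although each same-numbered pair was higher with BMP4-TGFB2, at ratios of 2.68, 3.35 and 2.31 for Cdh2 and 2.21, 1.94 and 5.29 for Vim. Without the block the adjusted p was 0.208 for Cdh2 and 0.225 for Vim. The Cdh2 call was also lost without BMP4 replicate 1 (adjusted p = 0.0649), without BMP4 replicate 2 (adjusted p = 0.0563) and without BMP4-TGFB2 replicate 3 (adjusted p = 0.0539).

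Set directly against TGFB2, BMP4 left Cdh2, Ncam1 and Vim lower, so 3 of 7 genes fell, beside 9.54% of all genes, and none rose, beside 10%. Vim was lower by -2.50 ± 0.35 (adjusted p = 0.000915), and every BMP4 library lay below every TGFB2 library. Ncam1 was lower by -1.42 ± 0.29 (adjusted p = 0.0069), also without overlap. Cdh2 was lower by -1.35 ± 0.33 (adjusted p = 0.0181), and its groups overlapped.

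Without the block the adjusted p of this comparison was 0.143 for Vim, 0.0915 for Ncam1 and 0.275 for Cdh2. The Cdh2 call was lost as well without TGFB2 replicate 2 (adjusted p = 0.0578), TGFB2 replicate 3 (adjusted p = 0.0734), BMP4 replicate 1 (adjusted p = 0.0945) or BMP4 replicate 2 (adjusted p = 0.0805). Cdh1 differed by 0.22 ± 0.08 (adjusted p = 0.0714) and was higher with BMP4 in all 3 same-numbered pairs, and DESeq2 called it (adjusted p = 0.0272).

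The interaction asked whether the joint effect on the log2 scale departed from the sum of the single effects. None of the 7 genes passed with edgeR, DESeq2 or limma, and 0 of them had an unadjusted p under 0.05, while 1.83% of all genes passed with edgeR. The estimates were -0.78 ± 0.47 for Cdh2 (adjusted p = 0.46), -0.67 ± 0.41 for Ncam1 (adjusted p = 0.463), -0.48 ± 0.47 for Vim (adjusted p = 0.681) and -0.13 ± 0.11 for Cdh1 (adjusted p = 0.619). Each of these estimates lay within 2 standard errors of 0.

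The 12-library profiles of the members were compared with each other and with other genes. Likeness was taken as the root mean square difference of log2 CPM (counts scaled to library size) after centring each gene on its own mean, and 10174 genes were compared. Between members, Cdh1 and Epcam differed by 0.254. This exceeded their own spreads about the mean, 0.203 for Cdh1 and 0.165 for Epcam, so it does not show a shared pattern. Cdh2 and Ncam1 differed by 0.418, below their spreads of 1.22 for Cdh2 and 1.37 for Ncam1. Vim differed by 0.922 from Cdh2 and by 1.08 from Ncam1, and Cdh1 differed from Vim by 1.60. These values are descriptions, since all profiles share libraries and depth.

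Outside the members, the profile of Cdh2 was closest to Slc12a4 (0.262), a potassium-chloride cotransporter, Csrp2 (0.353), a LIM-domain protein, and Foxf1 (0.377), a forkhead transcription factor. That of Ncam1 was closest to Nectin3 (0.308), an adhesion molecule that cooperates with cadherins, Vegfc (0.374), a lymphangiogenic growth factor, and Slc6a6 (0.380), the taurine transporter. Vim was closest to the collagen gene Col8a1 (0.478), then Spn (0.612) and Notch4 (0.613), farther on this scale than the nearest genes of Cdh2 and Ncam1. The spread of Vim about its own mean was 1.50, beside 1.22 for Cdh2 and 1.37 for Ncam1. A wider spread itself allows larger differences, so these distances do not rank the members by how closely other genes follow them.

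Genes with flat profiles had closer neighbours on this scale, where a small spread itself keeps differences small. Cdh1 was nearest to Cd99l2 (0.0776), Slc35a3 (0.0805) and Gtf3c2 (0.0821), and Epcam to Decr2 (0.0903), Nif3l1 (0.101) and Diablo (0.102). The scarce members were nearest to Fat1 (0.387), Pars2 (0.400) and Il6st (0.400) for Cdh3, and to Mdfi (0.205), Disp1 (0.235) and Ankrd13b (0.246) for Cdh11. Both scarce members had at most 59 counts in any library.

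Partners of these 7 genes were followed in 9 gene lists. Their counts against NT are to be read beside all tested genes. Of those, 20.4% rose and 21% fell with BMP4-TGFB2, 8.6% rose and 6.78% fell with BMP4, and 18.7% rose and 19.2% fell with TGFB2. Among 22 other cadherin genes, 9 were abundant enough to test. With BMP4-TGFB2 against NT 3 rose and 1 fell, with BMP4 none rose and 1 fell (0 without the block), and with TGFB2 4 rose and 1 fell. Cdh10, a type II cadherin, averaged 6.70 ± 2.52 TPM with BMP4-TGFB2, 0.313 ± 0.398 TPM with BMP4, 8.78 ± 2.61 TPM with TGFB2 and 0.111 ± 0.0968 TPM in NT (SD, n = 3 each). It rose by 5.91 ± 0.62 with BMP4-TGFB2 (adjusted p = 4.94e-05) and by 6.35 ± 0.63 with TGFB2 (adjusted p = 4.21e-05). Both calls passed in all 17 alternatives.

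Cdh17 and Cdh23 also rose in both comparisons and were close to 0 in NT. Cdh17 stayed scarce, at means of 0.248 TPM with BMP4-TGFB2, 0.281 TPM with TGFB2 and 0.0192 TPM in NT. Cdh23 had a mean of 0.910 TPM with BMP4-TGFB2, 1.65 TPM with TGFB2 and 0.00588 TPM in NT. Cdh23, a cadherin of inner ear hair cells, did not pass on log2(TPM + 1), at adjusted p of 0.13 with BMP4-TGFB2 and 0.0629 with TGFB2. Without the libraries numbered 3 its TGFB2 call was lost as well (adjusted p = 0.0522). Cdh17 was lost without the libraries numbered 1 (adjusted p = 0.0647 with BMP4-TGFB2 and 0.0511 with TGFB2) and with only BMP4-TGFB2 and NT fitted (adjusted p = 0.0545). Cdh19 fell by 2.67 ± 0.61 with BMP4-TGFB2 (adjusted p = 0.00594) and by 3.57 ± 0.65 with TGFB2 (adjusted p = 0.00182). It too was scarce, at means of 0.136 TPM with BMP4-TGFB2, 0.0662 TPM with TGFB2 and 0.916 TPM in NT (SD 0.719). The BMP4-TGFB2 call of Cdh19 had an adjusted p of 0.079 without the libraries numbered 1.

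Of 11 catenin, nectin and linker genes tested, 6 rose and 1 fell with BMP4-TGFB2, 4 rose with BMP4, and 5 rose and 2 fell with TGFB2. Without the block, 4 rose with BMP4-TGFB2, 1 rose with BMP4, and 4 rose and 1 fell with TGFB2. Ctnna1, which links cadherin-bound beta-catenin to actin, differed by 0.06 ± 0.08 with BMP4-TGFB2 and Ctnnd1, p120-catenin, by 0.17 ± 0.08, neither passing. Ctnnb1, beta-catenin, which binds the Cdh1 tail and also serves Wnt signalling, rose with BMP4-TGFB2 by 0.54 ± 0.13 (adjusted p = 0.00806), but not without the block (adjusted p = 0.175) or with only those groups fitted (adjusted p = 0.0661). For TGFB2 the Ctnnb1 difference was 0.36 ± 0.13 (adjusted p = 0.0509), which passed in 6 of 17 alternatives. Jup, plakoglobin, which also binds the Cdh1 tail, rose by 0.65 ± 0.08 with BMP4-TGFB2 and 0.65 ± 0.08 with TGFB2.

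Nectins are immunoglobulin-like adhesion molecules of adherens junctions, and 3 of the 4 in the list rose with BMP4-TGFB2 and with TGFB2. Nectin2 did not pass, at -0.09 ± 0.10 with BMP4-TGFB2 and -0.10 ± 0.10 with TGFB2. Nectin3 rose by 3.19 ± 0.16 with BMP4-TGFB2, by 1.31 ± 0.15 with BMP4 and by 3.11 ± 0.16 with TGFB2, and its BMP4 call was lost without the block (adjusted p = 0.08). Nectin4 rose by 1.98 ± 0.12 with BMP4-TGFB2 and by 1.47 ± 0.12 with TGFB2, and Nectin1 by 1.65 ± 0.13 with BMP4-TGFB2 and 1.09 ± 0.13 with TGFB2. Nectin3 averaged 47.7 ± 17.4 TPM with BMP4-TGFB2 and 5.11 ± 1.53 TPM in NT (SD, n = 3 each).

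Around Epcam, 5 of 12 partner and protease genes rose and 1 fell with BMP4-TGFB2, 4 rose with BMP4, and 5 rose and 1 fell with TGFB2. Without the block, 2 rose and 1 fell with BMP4-TGFB2, 1 rose with BMP4, and 1 rose and 1 fell with TGFB2. Fhl2, a LIM protein that binds the Epcam intracellular fragment, rose by 3.34 ± 0.21 with BMP4-TGFB2 and by 3.52 ± 0.21 with TGFB2. Adam17, which cleaves Epcam, fell by 0.75 ± 0.08 on the log2 scale with BMP4-TGFB2 and by 0.67 ± 0.08 with TGFB2. The protease inhibitor Spint1 rose by 0.77 ± 0.13 with BMP4-TGFB2 and 0.63 ± 0.13 with TGFB2, its TGFB2 call being lost without the block (adjusted p = 0.0637). Spint2 rose by 0.31 ± 0.10 with BMP4-TGFB2, a call lost in 9 of 17 alternatives, and by 0.35 ± 0.10 with TGFB2, lost in 4 of 17, at adjusted p of 0.0519 to 0.335.

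Around Ncam1, 7 of 11 genes rose with BMP4-TGFB2, 2 with BMP4, and 4 rose and 1 fell with TGFB2. Prnp, the prion protein that binds Ncam1, rose by 1.76 ± 0.09 with BMP4-TGFB2 and 1.80 ± 0.09 with TGFB2. The growth factor receptor Fgfr1, which Ncam1 engages, rose by 1.88 ± 0.23 with BMP4-TGFB2 and 1.49 ± 0.23 with TGFB2. Fgfr2 rose by 1.03 ± 0.27 with BMP4-TGFB2 and 1.50 ± 0.27 with TGFB2. Its BMP4-TGFB2 call was lost without NT replicate 2 (adjusted p = 0.0587), without BMP4-TGFB2 replicate 2 (adjusted p = 0.0594) and with only those groups fitted (adjusted p = 0.0752). Fgfr2 also averaged 3.76 ± 0.352 TPM with BMP4 alone (SD, n = 3 per group). Its means were 3.09 ± 0.464 TPM with BMP4-TGFB2, 3.19 ± 1.24 TPM with TGFB2 and 0.966 ± 0.161 TPM in NT. St8sia2, which adds polysialic acid to Ncam1, was scarce, at means of 0.339 TPM with BMP4-TGFB2, 0.0951 TPM with TGFB2 and 0.0164 TPM in NT. It rose with BMP4-TGFB2 by 4.57 ± 0.88 (adjusted p = 0.00225, and 0.0529 without the libraries numbered 3). Its TGFB2 difference was 2.28 ± 0.89 (adjusted p = 0.0677). Without the libraries numbered 3, the count with BMP4-TGFB2 was 3 of 11.

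Of 5 tested partners of vimentin and other filament genes, 2 rose with BMP4-TGFB2, 2 with BMP4 and 1 with TGFB2. Plec, the linker of filaments to junctions, rose by 1.33 ± 0.18 with BMP4-TGFB2 and 0.89 ± 0.18 with TGFB2, and Lmna by 0.53 ± 0.10 with BMP4-TGFB2. The mean of Lmna was highest with BMP4 alone, at 758 ± 95.9 TPM (SD, n = 3 per group). It was 658 ± 97.5 TPM with BMP4-TGFB2, 557 ± 104 TPM with TGFB2 and 480 ± 91.4 TPM in NT. Of 8 genes for cadherin shedding and turnover, 2 rose and 1 fell with BMP4-TGFB2, 2 rose with BMP4, and 2 rose and 1 fell with TGFB2. The proteases Mmp9 (7.07 ± 0.61 with BMP4-TGFB2, 6.97 ± 0.61 with TGFB2) and Mmp3 (5.04 ± 0.83 with BMP4-TGFB2, 4.20 ± 0.80 with TGFB2) rose. Mmp7 fell (-4.45 ± 0.66 with BMP4-TGFB2, -2.47 ± 0.57 with TGFB2). Without the block, the BMP4 count was 1 in both of these lists.

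**Figure D4:**
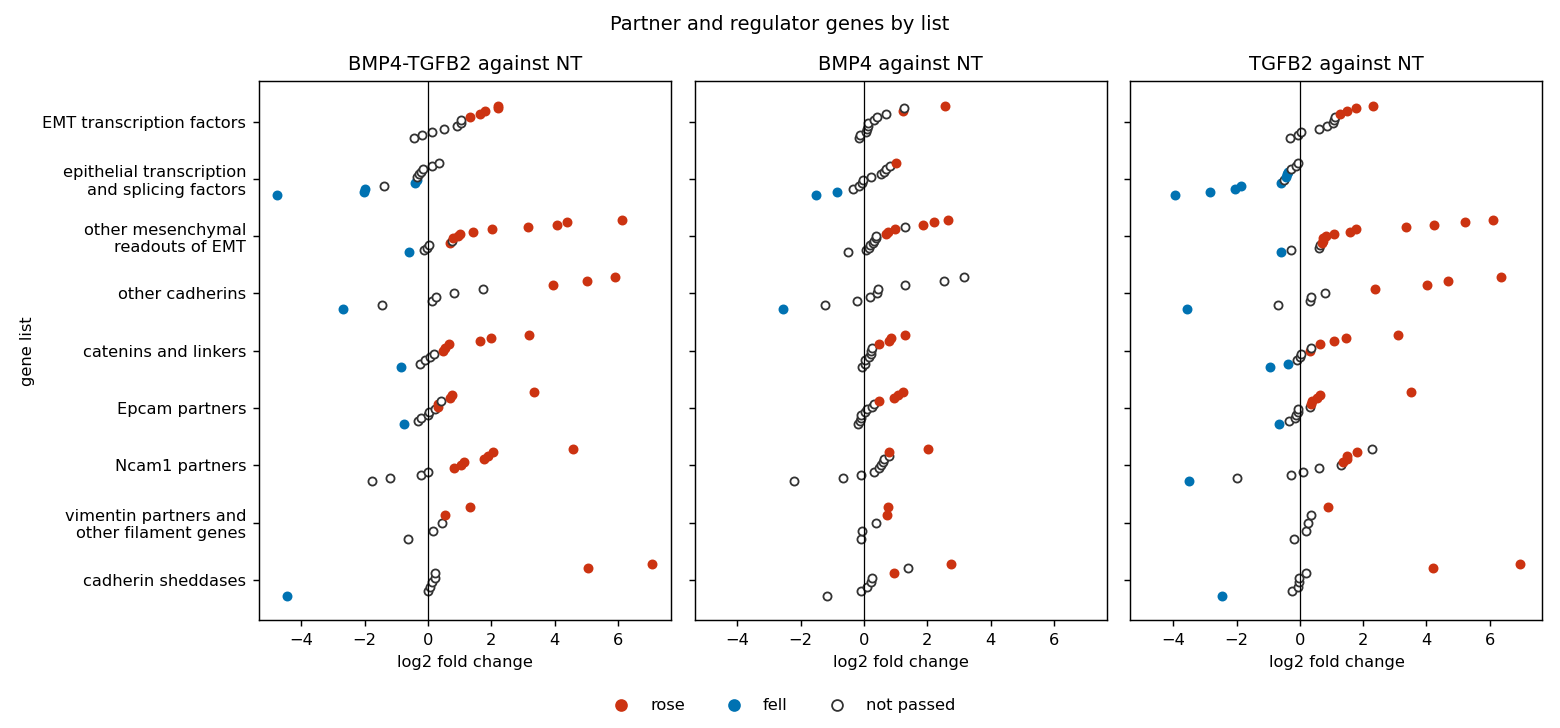
Log2 fold change against NT (horizontal axis) of every tested gene in 9 lists (vertical axis) for BMP4-TGFB2, BMP4 and TGFB2. Red points rose, blue points fell and open points did not pass. Most mesenchymal readouts lie right of 0 with BMP4-TGFB2 and TGFB2, and Elf5, the lowest epithelial factor, lies near -4.76 with BMP4-TGFB2.

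Among 12 EMT transcription factors tested, 5 rose with BMP4-TGFB2, 2 with BMP4 and 4 with TGFB2, and none fell. Snai1, a repressor of Cdh1, rose by 1.79 ± 0.10 with BMP4-TGFB2, 1.22 ± 0.10 with BMP4 and 1.77 ± 0.10 with TGFB2. Prrx2, a homeobox factor, rose by 2.21 ± 0.30 with BMP4-TGFB2 and by 1.49 ± 0.30 with TGFB2, the second lost without the block (adjusted p = 0.107). The mean of Prrx2 was highest with BMP4 alone, at 9.09 ± 3.71 TPM (SD, n = 3 per group). It was 7.87 ± 3.26 TPM with BMP4-TGFB2, 4.89 ± 1.02 TPM with TGFB2 and 1.63 ± 1.37 TPM in NT. Zeb1, another Cdh1 repressor, rose by 2.21 ± 0.58 with BMP4-TGFB2 and 2.32 ± 0.57 with TGFB2 but averaged 2.10 TPM with BMP4-TGFB2 and 2.42 TPM with TGFB2, against 0.294 TPM in NT. Its calls were lost without the libraries numbered 3 (adjusted p = 0.0988 with BMP4-TGFB2 and 0.0622 with TGFB2) and on log2(TPM + 1) (adjusted p = 0.0573 with BMP4-TGFB2 and 0.0504 with TGFB2). The BMP4-TGFB2 call was also lost without its replicate 3 (adjusted p = 0.0517) or with only those groups fitted (adjusted p = 0.0592).

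Hmga2, a chromatin protein that induces Snai1 and Twist1, rose by 1.33 ± 0.32 with BMP4-TGFB2 and 1.28 ± 0.31 with TGFB2, and both calls were lost without the libraries numbered 3 (adjusted p = 0.0871 with BMP4-TGFB2 and 0.0946 with TGFB2). Snai2 rose by 1.66 ± 0.47 with BMP4-TGFB2 (adjusted p = 0.0177), and 4 alternatives lost this call at adjusted p of 0.052 to 0.0925, namely without NT replicate 2 or 3, BMP4-TGFB2 replicate 2 or the libraries numbered 3. With TGFB2 the Snai2 difference was 1.11 ± 0.48 (adjusted p = 0.0952), and it passed without NT replicate 1 (adjusted p = 0.0264), TGFB2 replicate 1 (adjusted p = 0.0275) or all libraries numbered 1 (adjusted p = 0.0198). Zeb2 differed by 1.03 ± 0.41 with BMP4-TGFB2 (adjusted p = 0.0717) and 1.06 ± 0.41 with TGFB2 (adjusted p = 0.0671). Zeb2 passed in both comparisons with DESeq2, limma voom, no filter on low counts, without NT replicate 1 and without the libraries numbered 1. The adjusted p of these alternatives was 0.000758 to 0.0353 with BMP4-TGFB2 and 0.000794 to 0.027 with TGFB2. With BMP4-TGFB2 it also passed on both log2(TPM) scales and without BMP4-TGFB2 replicate 1. Twist1 differed by -0.19 ± 0.17 with BMP4-TGFB2 and -0.07 ± 0.17 with TGFB2. Without the libraries numbered 3, 2 of the 12 factors rose in each comparison.

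Of 12 epithelial transcription and splicing factors, 5 fell with BMP4-TGFB2, 1 rose and 2 fell with BMP4, and 8 fell with TGFB2. Without the libraries numbered 3, 1 rose and 3 fell with BMP4-TGFB2 and 3 fell with TGFB2, and without the block 4 fell with BMP4-TGFB2, 2 with BMP4 and 5 with TGFB2. Elf5, a factor of luminal differentiation, averaged 9.12 ± 2.77 TPM with BMP4-TGFB2, 88.7 ± 25.9 TPM with BMP4, 16.6 ± 4.97 TPM with TGFB2 and 245 ± 52.6 TPM in NT (SD, n = 3 each). The related factor Ehf fell by 1.99 ± 0.12 on the log2 scale with BMP4-TGFB2 and 1.85 ± 0.12 with TGFB2. Grhl1, a grainyhead factor, fell by 2.04 ± 0.24 with BMP4-TGFB2 and 2.85 ± 0.25 with TGFB2. Esrp1, the epithelial splicing regulator, fell by 0.35 ± 0.08 with BMP4-TGFB2 and 0.38 ± 0.08 with TGFB2. Without the libraries numbered 3 neither call passed (adjusted p = 0.108 with BMP4-TGFB2 and 0.0925 with TGFB2), nor with only the groups compared in the fit (adjusted p = 0.0902 with BMP4-TGFB2 and 0.0645 with TGFB2). Grhl2, an activator of Cdh1, fell with TGFB2 by 0.45 ± 0.11 (adjusted p = 0.00929; 0.1 without the libraries numbered 3, 0.0565 without those numbered 1, 0.0599 with only those groups fitted). Its BMP4-TGFB2 difference was -0.29 ± 0.11 (adjusted p = 0.0563).

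Of 15 other mesenchymal readouts, 10 rose and 1 fell with BMP4-TGFB2, 6 rose with BMP4, and 11 rose and 1 fell with TGFB2. Fn1, fibronectin of the matrix, had 659 ± 293 TPM with BMP4-TGFB2, 337 ± 99.5 TPM with BMP4, 777 ± 298 TPM with TGFB2 and 71.1 ± 35.7 TPM in NT (SD, n = 3 each). Itgb3, an integrin subunit, rose by 6.13 ± 0.32 with BMP4-TGFB2 and 6.10 ± 0.32 with TGFB2, and Lox, a collagen crosslinking enzyme, by 4.07 ± 0.46 with BMP4-TGFB2 and 4.25 ± 0.46 with TGFB2. The integrin subunit Itgav rose by 1.02 ± 0.12 with BMP4-TGFB2 and 0.83 ± 0.12 with TGFB2. Without the block, 8 rose with BMP4-TGFB2, 3 with BMP4 and 8 with TGFB2, and none fell. Without the libraries numbered 3 the BMP4 count was 1. The list medians with BMP4-TGFB2 were 0.96 for mesenchymal readouts, 1.03 for EMT factors and -0.35 for epithelial factors, beside 0.0035 for all genes.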

How the data were processed

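RNA of 12 PYMT libraries was enriched with oligo(dT) beads and sequenced paired-end, per the labels' protocols. The submitters' processing notes name bcl2fastq 2.17, STAR 2.7.5b, Salmon 1.2.1 and GRCm38.p6. The sources used here give no settings for these tools. Per the labels and file headers, the authors deposited estimated counts per gene, of which 82.9% were whole, and rounding here changed the total by 0.000361%. The authors also deposited TPM, used here for levels, and a normalized signal table, in which each library's counts were divided by 1 size factor. Per the file headers, all libraries shared 1 sequencing batch, were unstranded and passed quality control. No columns of other samples were present (0).

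Genes passing filterByExpr of edgeR 4.0.16 with a minimum count of 10 (15319 genes, 99.9% of counts) were fitted with the quasi-likelihood test in R 4.3.3. The fit used TMM factors (0.971 to 1.03), all 12 libraries, and terms for group and replicate number. P-values were adjusted by Benjamini-Hochberg over all tested genes, with a threshold of 0.05. The common biological coefficient of variation was 0.196. The script was tested on simulated counts for TGFB2 against NT, with an effect of replicate number built in. That test therefore cannot show whether the block is right for these libraries. No 2 replicates were alike within sampling noise (lowest chi-square per degree of freedom 30.3).

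Correlations between the deviations of same-numbered libraries were positive in all 18 pairs checked, from 0.0256 to 0.505, the lowest being negligible. Every pair exceeded 0.1 in 4 of 6 comparisons, but not in TGFB2 against NT (lowest 0.0805) or BMP4-TGFB2 against NT (lowest 0.0256). The labels do not say that a number marks a shared batch, so calls of the 7 genes that the block decides are given with their values without it. The same holds for counts against NT in the 9 partner and regulator lists that it moves by over 1.5 times. Counts of the cell type genes were made only with the block.

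Alternatives were DESeq2 1.42.0, limma 3.58.1 (voom, and log2(TPM + 0.1) or log2(TPM + 1)), RLE factors, other filters, only the groups compared, no replicate block, and leaving out libraries. The members and gene lists were chosen with earlier results of these data known. Genes were named from each list by smallest p in TGFB2 or BMP4-TGFB2 against NT (up to 4), with 10 named always. Likeness used log2 CPM with a prior count of 2. One gene of the mesenchymal list is not reported here.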

Additional observations from a re-analysis of the deposited data

Results flagged for a closer look

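The interaction of TGFB2 and BMP4 passed for none of the 7 structural genes but for 7 of the 40 partner and regulator genes named in any list, each with a joint effect below the sum of the single effects. Over all 15319 genes 1.83% passed, 90 above the sum and 190 below it. The named genes were mostly picked by smallest p against NT, a value that shares libraries with the interaction. With edgeR and the replicate block, Snai1 had an interaction of -1.20 ± 0.14 (log2 ± SE, adjusted p = 0.00526) and Prnp of -0.84 ± 0.12 (adjusted p = 0.012). Fgfr2 had -2.48 ± 0.38 and Itgb3 -2.64 ± 0.40 (adjusted p = 0.0137 each). Nectin3 had -1.23 ± 0.21 (adjusted p = 0.0214), Fhl2 -1.41 ± 0.27 (adjusted p = 0.0356) and Fn1 -2.39 ± 0.50 (adjusted p = 0.045). Without the block none of these 7 partner and regulator genes passed (adjusted p = 0.0662 to 0.568). Each of them also lost its call in at least 1 other alternative.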

How the results depend on the processing

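The 7 genes gave 861 values under an alternative setting, of which 790 kept their direction and their side of the threshold, 31 lost a call, 8 gained one and 32 changed sign. Of 67 calls of the named partner genes with BMP4-TGFB2 or TGFB2 against NT, 47 were kept in every alternative, 5 were lost without the replicate block and 2 only then. The cause of these changes was not tested, except that fits with fewer libraries or groups have fewer degrees of freedom. The alternative without the libraries numbered 3 was chosen after seeing the data.

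For BMP4-TGFB2 against NT, 6342 genes passed with the replicate block, 4007 without it, 3915 without the libraries numbered 3 and 3941 when only these groups were fitted. For BMP4 against NT, 2356 passed with the block, 833 without it and 843 without the libraries numbered 3, and the last 2 settings left 0 of the 7 genes. For TGFB2 against NT, 5799 passed with the block, 3423 without it, 3140 without the libraries numbered 3 and 3859 when only these groups were fitted. For BMP4-TGFB2 against BMP4, 3476 passed with the block, 1412 without it (2 of the 7 genes) and 1731 without the libraries numbered 3. For BMP4 against TGFB2, 2999 passed with the block, 1200 without it (0 of the 7 genes) and 1344 without the libraries numbered 3. For BMP4-TGFB2 against TGFB2, 6 passed with the block, 0 without it, 0 without the libraries numbered 3 and 500 when only these groups were fitted (2 of the 7 genes). The interaction passed for 280 genes with the block, 24 without it and 33 without the libraries numbered 3.

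With BMP4 against NT, 2 of the 7 genes passed with DESeq2, with limma voom, with no filter on low counts and without the libraries numbered 1, and 0 passed on either log2(TPM) scale. For BMP4-TGFB2 against TGFB2, 10 genes passed with RLE factors, 181 with DESeq2, 21 with limma voom and 136 with no filter. For the interaction, 846 passed with DESeq2, 76 on log2(TPM + 0.1), 77 on log2(TPM + 1), 611 with no filter and 145 without the libraries numbered 1.

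Leaving out 1 library, 1199 to 2342 genes passed for BMP4 against NT (0 to 2 of the 7), 2 to 5 for BMP4-TGFB2 against TGFB2, 2031 to 2676 for BMP4-TGFB2 against BMP4, 1706 to 2211 for BMP4 against TGFB2 and 61 to 447 for the interaction.

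Changes of sign were all in differences that had not passed, mainly those of the scarce Cdh3 and Cdh11. Leaving out 1 library, log2 fold changes ran as follows. With BMP4-TGFB2 against NT, Cdh3 lay between -0.378 and 0.566. With BMP4 against NT, Cdh11 lay between -0.197 and 0.190, Vim between -0.672 and 0.0188 and Cdh3 between -0.151 and 0.959. With TGFB2 against NT, Cdh3 lay between -0.523 and 0.432, Epcam between -0.0604 and 0.110, Twist1 between -0.258 and 0.0679, Ctnna1 between -0.0314 and 0.0263 and Ctnnd1 between -0.0163 and 0.0655. With BMP4-TGFB2 against TGFB2, Cdh3 lay between -0.168 and 0.368 and Cdh2 between -0.00531 and 0.282. With BMP4-TGFB2 against BMP4, Epcam lay between -0.0101 and 0.125 and Cdh3 between -0.871 and 0.158. In the interaction, Cdh3 lay between -0.798 and 0.321, Epcam between -0.0536 and 0.126 and Cdh11 between -0.417 and 0.00639.

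In the absence of the libraries numbered 1, the TGFB2 difference from NT was 0.152 for Cdh3, -0.0854 for Epcam, 0.0894 for Twist1 and 0.00688 for Ctnna1, the BMP4-TGFB2 difference from NT was 0.00951 for Twist1, and the Cdh11 interaction was 0.0502. Without those numbered 3, Cdh3 differed by 0.116 with TGFB2 against NT, 0.183 with BMP4-TGFB2 against BMP4 and -0.107 with BMP4 against TGFB2, its interaction was 0.0673, and Cdh11 differed by 0.0430 with BMP4 against NT. With only the groups compared, Cdh11 differed by 0.0119 with BMP4 against NT and Ctnna1 by 0.0182 with TGFB2 against NT. Requiring at least 1 CPM in 3 libraries gave 0.00609 for Ctnna1 with TGFB2 against NT.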

Other observations

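Mmp9, a protease that can cleave cadherins, averaged 108 ± 130 TPM with BMP4-TGFB2 and 102 ± 129 TPM with TGFB2, so its SD over replicates was larger than its mean in both groups, whereas NT averaged 0.608 ± 0.415 TPM (n = 3 each). Mmp9 passed against NT in both comparisons with edgeR.

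Of 12 mammary epithelial genes, 2 rose and 3 fell with BMP4-TGFB2, 2 rose with BMP4, and 1 rose and 3 fell with TGFB2, each against NT. Over all genes, 20.4% rose and 21% fell with BMP4-TGFB2, 8.6% rose and 6.78% fell with BMP4, and 18.7% rose and 19.2% fell with TGFB2. The prolactin receptor gene Prlr fell by 3.45 ± 0.22 with BMP4-TGFB2 and 2.88 ± 0.21 with TGFB2 on the log2 scale, and Krt19, a luminal keratin, by 0.68 ± 0.22 with BMP4-TGFB2 and 0.70 ± 0.22 with TGFB2. Claudin 4, a tight junction gene taken as an epithelial marker, went against the direction of Cdh1. Cldn4 rose by 2.94 ± 0.12 with BMP4-TGFB2, 1.12 ± 0.11 with BMP4 and 2.69 ± 0.12 with TGFB2 (log2 fold change ± SE, each against NT). The basal keratin gene Krt14 rose by 1.37 ± 0.35 with BMP4-TGFB2 and 1.96 ± 0.35 with BMP4, while its TGFB2 difference was 0.66 ± 0.34 (adjusted p = 0.155). These 4 genes were singled out after their values were seen. The BMP4 call of Cldn4 was lost without the block (adjusted p = 0.176).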
